A study of Mus musculus with 18 samples.

Results

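The cytosolic ribosomal proteins are the protein components of the ribosome that translates the mRNAs of the cell nucleus, and their mRNAs were followed here in brain microglia and astrocytes. Members were taken by gene symbol, as Rps or Rpl with a number and an optional a, x or l ending, together with Rplp0, Rplp1, Rplp2 and Rpsa. This gave 83 of the 35869 gene symbols in the tables, of which 81 reached 1 TPM in at least 4 libraries and are described, 32 of the small and 49 of the large subunit. TPM is a level per transcript length, scaled so that each library sums to the same total. The study asked what the growth factor encoded by Tgfb1 does when microglia make it. All animals were C57BL/6 mice that received tamoxifen by oral gavage, 5 doses of 180 mg/kg, and microglia and astrocytes were sorted by flow cytometry from their brains after enzymatic isolation with inhibitors. The groups were KO microglia (n = 4, animals 1 to 4), control microglia (n = 4, animals 1, 2, 4 and 5), KO astrocytes (n = 4, animals 1 to 4) and control astrocytes (n = 5, animals 1 to 5). KO mice carried Cx3cr1CreERT2, a tamoxifen-activated recombinase driven by the Cx3cr1 gene of microglia and other macrophages, and floxed Tgfb1 alleles (Tgfb1fl/fl). Control mice are labelled as carrying Cx3cr1CreERT2, so the recombinase and tamoxifen are shared by all groups, and astrocytes are not a cell type in which Cx3cr1 is known to drive it. Ages were not in the labels. Another library, whose labels name different cell types, was used in no comparison.

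Each ribosome holds one copy of nearly every ribosomal protein, bound to ribosomal RNA in a small subunit, which reads the mRNA, and a large subunit, which forms the peptide bond. The genes are scattered over the genome, here over 19 chromosomes, and their mRNAs are short and among the most abundant in a cell. In mammals these mRNAs typically begin with a C and a run of pyrimidines, the 5′ terminal oligopyrimidine (TOP) motif, through which mTORC1 signalling and the RNA-binding protein LARP1 control their translation and stability.

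Part of the annotated start sites show this feature, which the choice of members by symbol did not use. A promoter entry of RefSeq (GRCm38.p6) was found for 60 of the 81 members. The following windows run from 10 bases before to 20 bases after an annotated start, with a C followed by at least 4 C or T bases in capitals where one begins within 10 bases of the start. Rps18, Rpl35, Rpl38, Rplp2 and Rpl32l carry such a run, while Rps28 and Rpl37a, which are among the members with the largest KO difference in microglia, and Rpl4 and Rpl5, which are among those with the smallest, have none at the start given in the table.
Rps18 (chr17:33955646-33955675, minus strand): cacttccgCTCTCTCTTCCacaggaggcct
Rpl35 (chr2:39005112-39005141, minus strand): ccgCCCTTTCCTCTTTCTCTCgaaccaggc
Rpl38 (chr11:114668570-114668599, plus strand): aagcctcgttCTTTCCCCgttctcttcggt
Rplp2 (chr7:141447641-141447670, plus strand): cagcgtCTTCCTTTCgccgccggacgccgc
Rpl32l (chr10:20208429-20208458, plus strand): aaatgaccagCTTCTTCCTTggtgctgcct
Rps28 (chr17:33824543-33824572, minus strand): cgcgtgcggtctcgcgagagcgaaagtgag
Rpl37a (chr1:72711250-72711279, plus strand): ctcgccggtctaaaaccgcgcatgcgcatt
Rpl4 (chr9:64173377-64173406, plus strand): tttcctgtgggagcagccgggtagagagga
Rpl5 (chr5:107900518-107900547, plus strand): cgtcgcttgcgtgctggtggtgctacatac

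Such a run began exactly at the start in 14 of 60 members (23.3%), against 3.01% of all 27025 genes with an entry. A run beginning within 10 bases of the start was present in 37 of 60 members (61.7%), against 34.4% of all genes and 37.1% of the genes tested in microglia. Searched on both strands of the 300-base window, from 250 bases before to 50 after the start, CCGGAAG was in 25 of 60 members (41.7%), against 9.93% of all genes and 20.6% of the genes tested in microglia. AAGATGG was in 9 of 60 (15.0%), against 7.28% of all genes. The 120 bases before the start of Rps18 and of Rplp2 are shown as examples with CCGGAAG, or its reverse complement CTTCCGG, in capitals.
Rps18 (chr17:33955666-33955785, minus strand): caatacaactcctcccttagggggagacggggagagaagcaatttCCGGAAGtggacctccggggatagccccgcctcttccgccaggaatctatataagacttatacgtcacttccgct
Rplp2 (chr7:141447531-141447650, plus strand): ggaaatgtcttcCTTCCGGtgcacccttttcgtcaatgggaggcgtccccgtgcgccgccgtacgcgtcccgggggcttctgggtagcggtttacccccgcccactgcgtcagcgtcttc

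Several features of the libraries touch the results. The targeted gene Tgfb1 lay between 1.3 and 2.0 TPM in KO microglia and between 2.8 and 3.4 TPM in control microglia. The astrocyte marker Aqp4 was at 72.9 to 166.4 TPM in astrocytes and at most 0.5 TPM in microglia. The microglial marker P2ry12 lay between 206.2 and 265.4 TPM in KO microglia and between 3440.6 and 4100.6 TPM in control microglia. Of 10 microglial markers, 9 were called lower in KO microglia by the limma test described below, where 14.2% of all genes tested were. All KO animals and control animals 1 and 2 had Xist RNA, made from the inactive X chromosome of females, and at most 0.1 TPM of the Y-linked Ddx3y, whereas control animals 3, 4 and 5 had Ddx3y RNA and no Xist. In microglia, 18622 and 19175 genes were at 0 in control animals 1 and 2, and 17119 and 17963 in control animals 4 and 5. KO microglia 1 to 4 had 16921, 16608, 17408 and 17389 genes at 0, closer to control animals 4 and 5 than to 1 and 2. Because of the difference in Xist and Ddx3y, counts of members called between genotypes, and values of some named members, are also given against control animals 1 and 2 alone. For the remaining genes and the other lists, only values against all control animals are given.

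The described members made up 5.91%, 4.66%, 4.85% and 6.03% of all TPM in KO microglia 1 to 4, against 3.42%, 3.70%, 2.48% and 2.29% in control microglia 1, 2, 4 and 5. In astrocytes the shares were 2.13%, 1.25%, 1.63% and 1.72% in KO animals 1 to 4, against 1.52%, 1.76%, 1.72%, 1.46% and 1.57% in control animals 1 to 5. Every KO microglia library thus lay above every control microglia library, and the astrocyte groups overlapped. The group means were 5.36% ± 0.71 in KO microglia and 2.97% ± 0.69 in control microglia (SD, n = 4 each), a ratio of 1.80. They were 1.68% ± 0.36 in KO astrocytes (n = 4) and 1.61% ± 0.13 in control astrocytes (n = 5), a ratio of 1.05. The summed large-subunit TPM was 1.49 to 1.58 times the small-subunit sum in KO microglia and 1.62 to 1.78 times in control microglia, without overlap. These sums are over chosen members and carry no test. A share of RNA does not tell more ribosomal protein mRNA per cell from less of other mRNAs, and in sorted bulk samples fewer cells of a type and less RNA per cell cannot be told apart.

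**Figure D1:**
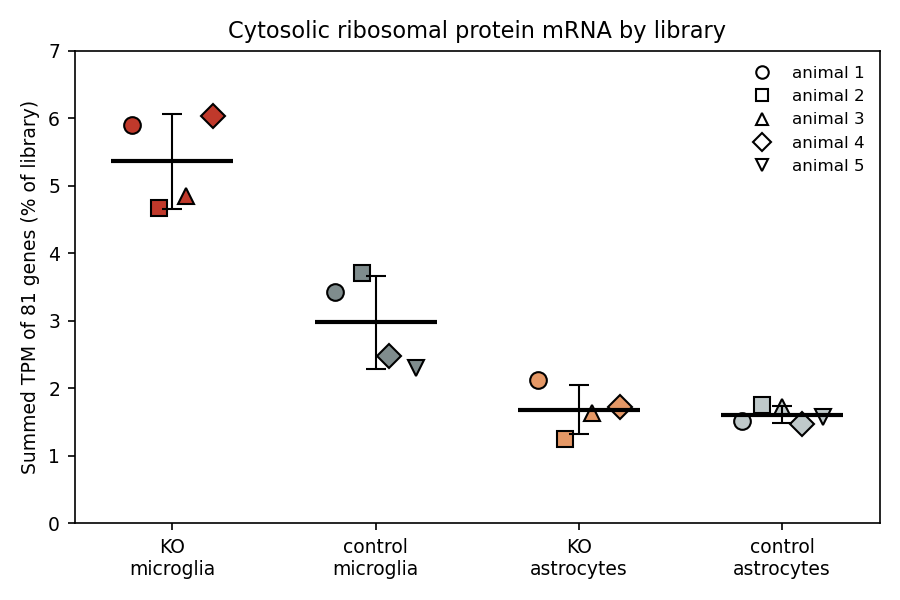
Summed TPM of the 81 described genes as percent of each library, by group; marker shape gives the animal number, the horizontal line the group mean and the bar 1 SD. The 4 KO microglia libraries lie between 4.66% and 6.03%, above the control microglia libraries at 2.29% to 3.70%, while the astrocyte groups overlap.

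In microglia the ribosomal protein mRNAs were higher in KO animals nearly throughout. By the limma test on log2(TPM + 1), with p-values adjusted by Benjamini-Hochberg over all 13054 genes tested and a threshold of 0.05, 75 of 81 members were higher in KO microglia and 0 were lower, where 14.2% of all genes tested were called higher. All 81 differences were positive, with a median of 0.86 on the log2 scale (a fold of 1.82), an interquartile range of 0.66 to 1.04 and a full range of 0.01 to 1.61, beside a median of 0.004 over all genes. In 73 members every KO library lay above every control library, against 14.8% of all genes, and in 0 members every KO library lay below, against 15.7%. The small subunit had 30 of 32 members higher with a median of 0.92, and the large subunit 45 of 49 with a median of 0.79.

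Among small-subunit genes the largest differences were those of Rps29 and Rps28. Rps29, a zinc-binding protein (chr12:69157722-69159186), had 1796.9, 1248.5, 1620.8 and 2005.9 TPM in KO microglia, against 512.8, 758.2, 622.3 and 348.1 TPM in control microglia. The lowest KO library was well above the highest control library, and the log2 difference was 1.61 (SE 0.23, limma adjusted p = 0.000677). Rps28 (chr17:33823036-33824562) had 326.1, 236.5, 264.2 and 349.8 TPM in KO microglia, against 94.3, 138.3, 96.8 and 63.8 TPM in control microglia, a log2 difference of 1.61 (SE 0.22, limma adjusted p = 0.000486). Rps2 (chr17:24718121-24721927), which lies at the mRNA entry side of the subunit, was more scattered, with 152.0, 96.8, 139.2 and 230.4 TPM in KO microglia, against 31.0, 94.3, 73.8 and 43.9 TPM in control microglia. Its groups were separated only narrowly, by KO animal 2 and control animal 2, and its log2 difference of 1.39 had the widest error of these genes (SE 0.36, limma adjusted p = 0.0167).

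Rps18 (chr17:33951998-33955665), in the head of the small subunit, had 1574.5, 1234.0, 1221.0 and 1524.2 TPM in KO microglia, against 703.2, 788.7, 506.0 and 459.4 TPM in control microglia. KO animals 1 and 4 were highest and control animals 4 and 5 lowest, and the log2 difference was 1.20 (SE 0.18, limma adjusted p = 0.000803). Rpsa (chr9:120127766-120132369), a small-subunit protein also known as the laminin receptor precursor, had 206.0, 198.6, 196.4 and 259.5 TPM in KO microglia, against 133.6, 113.9, 79.2 and 85.3 TPM in control microglia, a log2 difference of 1.08 (SE 0.17, limma adjusted p = 0.00134). Rps19, whose human counterpart is mutated in Diamond-Blackfan anaemia, differed by 1.30 (SE 0.20, limma adjusted p = 0.000881).

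In the large subunit the leading genes were Rpl38, Rpl37a and Rpl32. Rpl38, which in mice is needed for translation of a set of Hox mRNAs (chr11:114667818-114672333), had 172.8, 119.7, 140.8 and 178.4 TPM in KO microglia, against 53.3, 77.4, 53.7 and 33.9 TPM in control microglia, a log2 difference of 1.51 (SE 0.23, limma adjusted p = 0.000982). Rpl37a, another zinc-binding protein (chr1:72711260-72713813), had 1003.0, 673.4, 738.0 and 976.9 TPM in KO microglia, against 381.7, 514.5, 331.3 and 195.4 TPM in control microglia, a log2 difference of 1.31 (SE 0.27, limma adjusted p = 0.00505). Rpl32 (chr6:115805514-115808743) had 3322.9, 2507.1, 2643.6 and 3240.6 TPM in KO microglia, against 1336.6, 1746.5, 969.4 and 846.1 TPM in control microglia, a log2 difference of 1.30 (SE 0.21, limma adjusted p = 0.00144). In all of these genes KO animals 1 and 4 were above KO animals 2 and 3, and control animal 5 was the lowest library.

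Rpl7 (chr1:16101295-16104433) stood for the members with a smaller and tighter difference. It had 1187.6, 1111.8, 1061.9 and 1207.1 TPM in KO microglia, against 858.4, 740.1, 663.6 and 684.4 TPM in control microglia, a log2 difference of 0.64 (SE 0.096, limma adjusted p = 0.000868). The groups did not overlap although the fold was 1.56. Rpl4 and Rpl5 had the smallest differences past the threshold. Rpl4, which reaches into the peptide exit tunnel (chr9:64173387-64178562), had 1886.1, 1885.0, 1745.9 and 1932.5 TPM in KO microglia, against 1705.2, 1405.9, 1226.0 and 1373.1 TPM in control microglia, a log2 difference of 0.39 (SE 0.10, limma adjusted p = 0.0172). Rpl5, which binds 5S ribosomal RNA and the p53 regulator Mdm2, differed by 0.42 (SE 0.11, limma adjusted p = 0.0172).

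The acidic stalk of the large subunit, which recruits the elongation factors, is made of Rplp0, Rplp1 and Rplp2. Rplp0 had 1645.1, 1583.9, 1444.8 and 1715.6 TPM in KO microglia, against 1304.3, 1114.7, 821.1 and 956.7 TPM in control microglia. Rplp1 had 1538.6, 1118.2, 1131.7 and 1523.3 TPM in KO microglia, against 770.1, 960.9, 569.6 and 452.1 TPM in control microglia. Rplp2 had 329.8, 255.7, 279.8 and 358.2 TPM in KO microglia, against 170.9, 194.5, 125.8 and 98.9 TPM in control microglia. All 3 were higher in every KO library than in any control library, by 0.62 (SE 0.14, limma adjusted p = 0.00723) for Rplp0, 0.99 (SE 0.23, limma adjusted p = 0.00916) for Rplp1 and 1.08 (SE 0.21, limma adjusted p = 0.00353) for Rplp2 on the log2 scale.

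Paralogs differed in how far they shared the difference. Rpl39l, which in mice is best known from testis, had the lowest mean of the described members and reached 1 TPM in 8 libraries, all of microglia. It had 5.3, 3.4, 3.6 and 6.9 TPM in KO microglia and 1.7, 2.0, 1.1 and 2.8 TPM in control microglia, and at most 0.1 TPM in any astrocyte library. Its log2 difference of 0.99 (SE 0.26, limma adjusted p = 0.0170) lay beside 1.25 (SE 0.23, limma adjusted p = 0.00285) for the X-linked Rpl39, which lines the exit tunnel. Rps27l, known as a p53 target, differed by 0.81 and Rps27 by 1.20, both past the threshold. Rpl36al and Rps4l did not pass: Rpl36al differed by 0.44 (SE 0.19, limma adjusted p = 0.129), beside 1.25 for Rpl36a, and Rps4l by 0.01 (SE 0.17, limma adjusted p = 0.964), beside 0.71 for Rps4x. Rpl3 and Rpl10 differed by 0.69 and 0.62, both past the threshold, while their paralogs did not meet the level rule. Rpl3l, a paralog of heart and skeletal muscle, reached 1 TPM in 1 library, with 1.4 TPM in control astrocytes 1, and Rpl10l was listed at 0 in all 17 libraries. Reads of near-identical copies may be split between them, so the values of these pairs, and of the retrogene row Rpl32l beside Rpl32, are uncertain.

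Besides Rpl36al and Rps4l, the members that missed the threshold in microglia were Rpl27, Rpl21, Rpl8 and Rps10, named after their values were seen, with log2 differences of 0.61, 0.50, 0.47 and 0.58 and limma adjusted p-values of 0.0509, 0.0646, 0.0676 and 0.0947. KO libraries of all 6 overlapped with control libraries. The members moved as a block across animals: KO animal 4 was the highest microglial library for 52 of 81 members and KO animal 1 for 27, and control animal 5 was the lowest for 51 and control animal 4 for 29. This pattern was not particular to them. Other mRNAs with a spliced length of up to 800 nt took 13.5%, 11.6%, 11.8% and 13.2% of all TPM in KO microglia 1 to 4. Their share was 9.50%, 9.56%, 7.83% and 7.38% in control microglia 1, 2, 4 and 5. The spread between replicates, as the median coefficient of variation over the members, was 15.2% in KO microglia and 26.2% in control microglia.

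**Figure D2:**
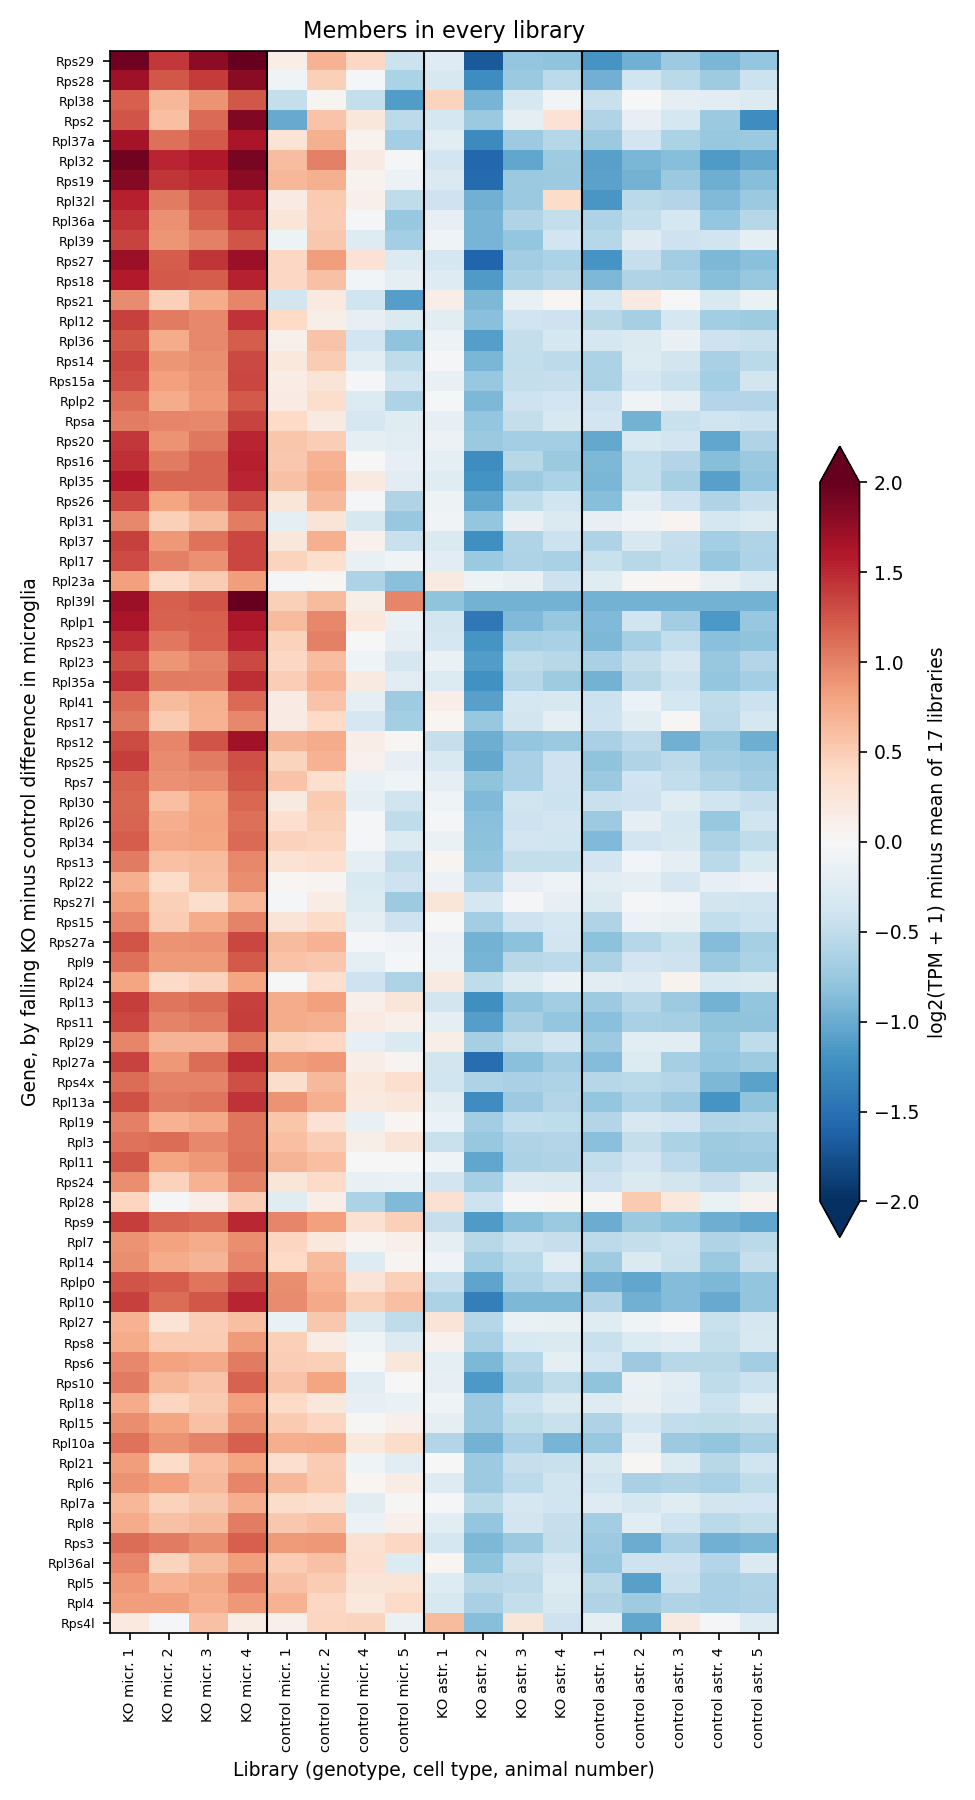
Of the 81 described members, 79 are shown in each of the 17 libraries, as log2(TPM + 1) minus the gene's mean over the libraries; rows are ordered by the KO minus control difference in microglia, columns by genotype, cell type and animal, and the colour scale ends at 2 in either direction. KO microglia columns are red in nearly all rows, control animals 1 and 2 are redder than 4 and 5 in microglia, and KO astrocyte 2 is the bluest column.

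Control microglia were not uniform. Animals 1 and 2 have Xist RNA, as all KO animals do. On average they were above animals 4 and 5 in 80 of 81 members, against 38.3% of all genes tested. The median log2 difference was 0.60, beside a median of -0.11 over all genes. Against control animals 1 and 2 alone, 48 of 81 members were called higher in KO microglia and 0 lower, where 14.0% of all genes tested were called higher, and the median difference was 0.53. Rps29, Rps28, Rpl38, Rps18 and Rpl7 passed in that comparison, with log2 differences of 1.40, 1.34, 1.22, 0.89 and 0.52, and Rps2, Rpl4, Rpl22 and Rps24 did not. Against control animals 4 and 5 alone, 79 of 81 members were called higher, where 15.3% of all genes were, and the median was 1.15. Sex and the other differences between these controls cannot be told apart.

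The KO difference also moved with transcript length. Spliced length, the median over protein-coding GENCODE M21 transcripts, was known for 79 members, whose median was 757 nt, against 2544 nt for the other genes tested. The 11 members of up to 500 nt had a median log2 difference of 1.20, beside 0.49 for the 102 other genes of that length, of which 20.6% were called higher. The 18 members between 800 and 1000 nt had a median of 0.67, beside 0.06 for 411 other genes, and the 6 members over 1500 nt had 0.93, beside -0.04 for 8004 other genes. Across the 79 members the Spearman correlation of difference and length was -0.394, a description over genes measured in the same libraries. After a smooth curve of length, fitted on genes that are no members, was removed from each library, 74 of 79 members were called higher, where 16.2% of all genes were, with a median of 0.65. This correction was chosen after the data were seen.

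**Figure D3:**
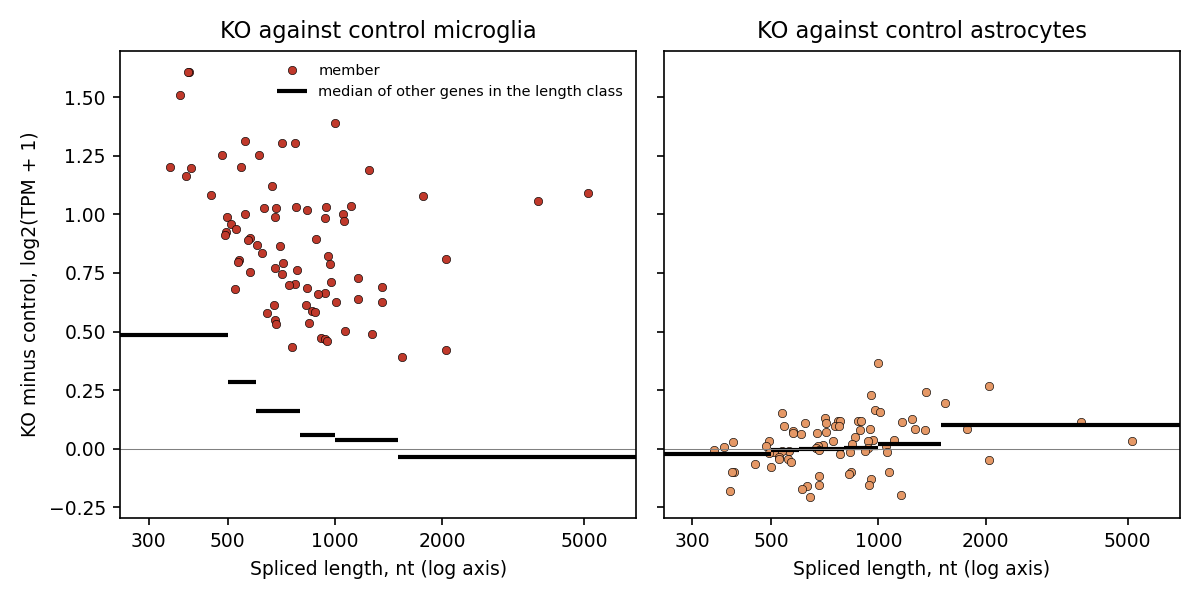
KO minus control difference in log2(TPM + 1) against spliced transcript length in nt (log axis), for microglia (left) and astrocytes (right); points are members and black lines the median of all other genes in a length class. The microglial members' median is above that of other genes in every length class, from 1.20 against 0.49 up to 500 nt to 0.93 against -0.04 over 1500 nt.

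Other values moved with the genotype in microglia. Beside the 14.2% of all genes called in each direction, 5 of 8 markers of border-associated macrophages were higher in KO microglia, led by Pf4, Ms4a7 and Mrc1, and 1 was lower, Cbr2; their summed level was 5453.5 to 6104.9 TPM in KO libraries and 380.5 to 725.6 TPM in control libraries. Of 11 tested dissociation and early response genes, 6 were higher, led by Dusp1, Fos and Ier2, and 1 was lower, Junb, with sums of 1887.6 to 2380.4 TPM in KO libraries and 954.2 to 1594.4 TPM in control libraries. Of 4 tested neuronal markers 2 were higher, with sums of 16.8 to 72.6 TPM in KO libraries and 5.1 to 10.3 TPM in control libraries. Of 6 tested astrocyte markers 3 were higher, Aldh1l1, Aldoc and S100b, and 1 was lower, Slc1a3, with sums of 85.9 to 100.7 TPM in KO libraries and 298.6 to 632.8 TPM in control libraries; Slc1a3 alone was at 33.8 to 39.3 TPM in KO and 274.9 to 608.3 TPM in control libraries. The 13 mitochondrially encoded protein genes took 2.95% to 3.57% of KO libraries and 2.11% to 2.56% of control libraries. Their part in the ribosomal protein difference was not tested.

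In astrocytes 0 of 80 tested members passed in either direction, and 0 had an unadjusted p under 0.05. The background was low too, with 0.00657% of 15231 genes called, 1 gene, and 1939 genes at an unadjusted p under 0.05. The median difference was 0.03 on the log2 scale, with a range of -0.20 to 0.37 and 49 positive, beside 0.07 over all genes, and the median turned to -0.01 with median-of-ratios scaling. Rps18 had 441.7, 239.0, 338.1 and 357.5 TPM in KO astrocytes, against 281.9, 348.0, 338.9, 292.4 and 312.4 TPM in control astrocytes, a log2 difference of 0.10 (SE 0.16, limma adjusted p = 0.818). Rpl7 had 562.9, 434.3, 472.9 and 463.6 TPM in KO astrocytes, against 442.2, 456.9, 470.4, 417.8 and 436.2 TPM in control astrocytes, a log2 difference of 0.11 (SE 0.092, limma adjusted p = 0.606). The KO libraries enclosed or overlapped the control values in both genes, and in 0 members did every KO library lie above every control library, against 2.94% of all genes.

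The smallest p-values in astrocytes were those of Rpl4, Rplp0 and Rpl5, with log2 differences of 0.19 (SE 0.089, limma adjusted p = 0.397), 0.24 (SE 0.12, limma adjusted p = 0.434) and 0.27 (SE 0.14, limma adjusted p = 0.442). KO astrocyte libraries were spread more widely than controls, with a median coefficient of variation of 22.9% in KO and 11.6% in control astrocytes: KO animal 1 was the highest astrocyte library for 67 of 81 members and KO animal 2 the lowest for 63. Other mRNAs of up to 800 nt were also highest in KO animal 1 and lowest in KO animal 2, at 10.2% and 6.94% of all TPM. Without KO animal 1 the median difference was -0.09, and without KO animal 2 it was 0.17. Summed mural and fibroblast-like markers also varied, from 758.5 to 9603.9 TPM in KO and from 193.1 to 3206.3 TPM in control astrocytes, with 0 of 9 past the threshold, and oligodendrocyte markers from 7193.2 to 18392.2 TPM in KO and from 5024.6 to 7561.3 TPM in control astrocytes. Their part in the spread was not tested.

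**Figure D4:**
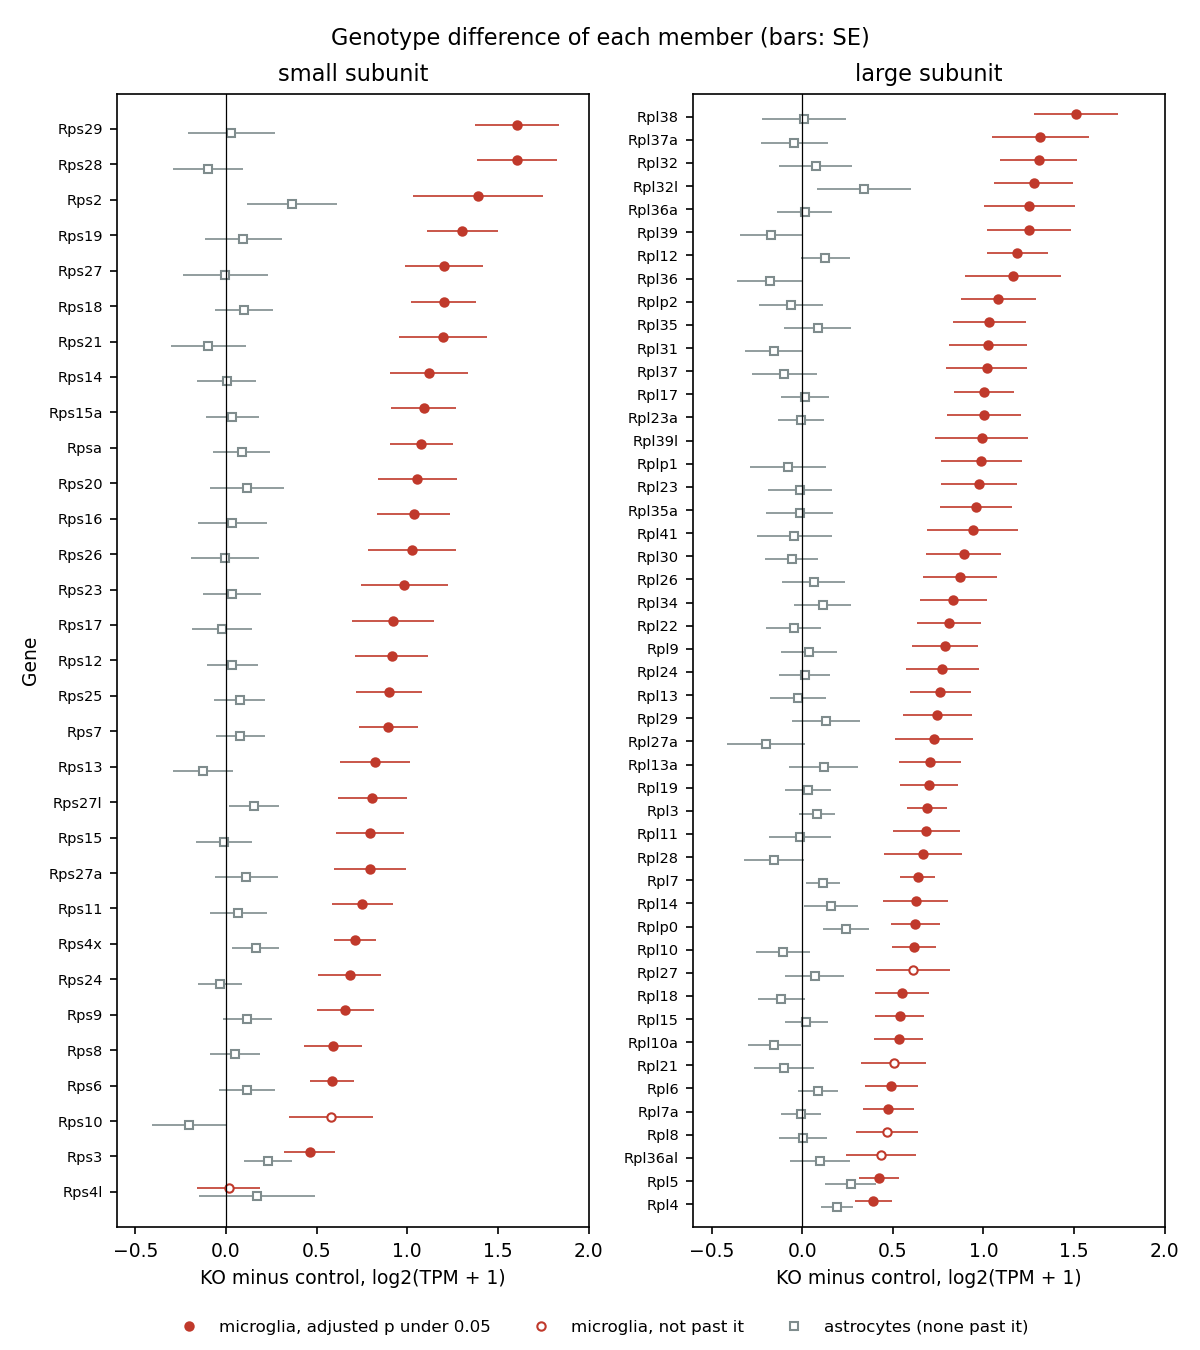
KO minus control difference in log2(TPM + 1) of 79 of the 81 members with its SE, in microglia (red circles, filled where limma's adjusted p is under 0.05) and astrocytes (grey squares), small subunit left and large subunit right. All 79 microglial differences shown are positive and 73 are filled, while the astrocyte differences lie between -0.20 and 0.37.

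Whether the genotype difference was larger in microglia than in astrocytes was tested with an interaction contrast over all 17 libraries. It was called higher in microglia for 48 of 81 members and lower for 0, where 6.63% of 17087 genes were called higher and 8.87% lower, and the median was 0.85 on the log2 scale. The largest were those of Rps28, 1.70 (SE 0.31, limma adjusted p = 0.00101), Rps29, 1.58 (SE 0.36, limma adjusted p = 0.00583), Rpl38, 1.50 (SE 0.35, limma adjusted p = 0.00755), Rpl39, 1.42 (SE 0.30, limma adjusted p = 0.00362), Rpl37a, 1.36 (SE 0.34, limma adjusted p = 0.0126) and Rpl36, 1.34 (SE 0.34, limma adjusted p = 0.0115). The count rested on single libraries: it was 27 without KO microglia 1, 28 without KO microglia 4, and 29 without either control microglia 4 or control microglia 5. Shares of all genes called in those fits are not given here. With control animals 1 and 2 alone the count was 2 of 81, Rps28 among them, where 4.99% of all genes were called higher. The median there was 0.59, and 77 of 81 contrasts were positive.

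Ribosomal protein mRNAs took a larger share of TPM in control microglia than in control astrocytes, 2.97% against 1.61%. Of 81 members 63 were higher in control microglia and 1 was lower, where 26.2% of 15332 genes were called higher, 39.5% lower and 65.7% in either direction, and the median was 0.72 on the log2 scale, beside -0.19 over all genes. Every control microglia library lay above every control astrocyte library in 49 members, against 22.6% of all genes, and below in 0, against 33.8%. Quantile normalization moved the median over all genes to 0.11 and that of the members to 0.83. Among the largest were those of Rps9, which in yeast affects decoding accuracy, 1.56 (SE 0.14, limma adjusted p = 3.44e-06), Rpl10, which helps to shape the tRNA site between the subunits, 1.54 (SE 0.11, limma adjusted p = 7.04e-07), Rplp0, 1.50 (SE 0.12, limma adjusted p = 1.66e-06), and Rps3, 1.46 (SE 0.14, limma adjusted p = 4.44e-06). Rpl10 had 1111.1, 979.6, 802.3 and 879.2 TPM in control microglia, against 381.8, 296.5, 317.2, 287.0 and 335.6 TPM in control astrocytes, far apart and without overlap. Rpl28, a protein that budding yeast lacks, was the member called lower, with 123.7, 161.2, 95.1 and 79.0 TPM in control microglia, against 149.2, 212.9, 169.8, 134.6 and 154.3 TPM in control astrocytes. Its groups overlapped, and the log2 difference of -0.55 (SE 0.21, limma adjusted p = 0.0381) no longer passed with median-of-ratios scaling or quantile normalization, nor without any one of control microglia 4 and 5 and control astrocytes 1, 2, 3 and 5, where its adjusted p by limma was 0.0501 to 0.111.

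KO microglia and KO astrocytes were further apart. Of 81 members 79 were higher in KO microglia and 0 lower, where 26.4% of 15365 genes were called higher and 69.4% in either direction, and in all 79 every KO microglia library lay above every KO astrocyte library, against 24.7% of all genes, and in 0 members below, against 40.7%. The median was 1.58 on the log2 scale, beside -0.24 over all genes, which quantile normalization moved to 0.11. Among the largest were those of Rps29, 2.69 (SE 0.27, limma adjusted p = 1.51e-05), Rpl32, 2.67 (SE 0.23, limma adjusted p = 4.92e-06), Rps19, 2.46 (SE 0.24, limma adjusted p = 1.02e-05), and Rps27, 2.34 (SE 0.25, limma adjusted p = 1.92e-05). Rps4l and Rpl28 did not pass, with 0.32 and 0.27. Rpl39l is counted among the calls in both comparisons of cell types, but it met the level rule only through microglia and lay at 0 or 0.1 TPM in astrocytes, so it had to differ there. It is also counted in the interaction, where its 0.96 mostly repeats its KO difference of 0.99 in microglia. These comparisons share libraries with those between genotypes.

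Levels differed widely between members. Over the 17 libraries Rps14 had the highest mean, 1223 TPM, followed by Rpl32, Rpl35, Rpl4 and Rpl13 with 1217, 1160, 1157 and 1053 TPM. Their order depended on the group. In KO microglia Rps14 averaged 2352 ± 391 TPM and Rpl13 2064 ± 229 TPM (SD, n = 4 each), closer than their spread. Rpl32 and Rpl4 were apart there, with 2929 ± 413 TPM and 1862 ± 80.7 TPM. In control astrocytes Rps14 averaged 765 ± 89.1 TPM and Rpl32 435 ± 35.7 TPM (SD, n = 5 each). The lowest were Rpl39l, Rpl22 and Rps24 with 1.58, 9.41 and 26.2 TPM. Rpl22 averaged 14.9 ± 2.53 TPM in KO microglia and 8.05 ± 1.47 TPM in control microglia, against 7.48 ± 1.33 TPM in KO astrocytes and 7.68 ± 0.49 TPM in control astrocytes, and its control microglia and control astrocytes overlapped. Rps24 averaged 42.9 ± 7.11 TPM in KO microglia and 26.5 ± 5.21 TPM in control microglia, against 18.5 ± 2.28 TPM in KO astrocytes and 18.9 ± 1.04 TPM in control astrocytes.

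Ribosomal proteins whose symbols fall outside the pattern moved with the members. Of 6 such genes, 5 were higher in KO microglia and 0 lower, where 14.2% of all genes were called in each direction. Their median was 0.82, beside 0.004 over all genes. Rpl22l1, a paralog of Rpl22, differed by 1.06 (SE 0.17, limma adjusted p = 0.00123), and Rack1, the scaffold on the small subunit, by 0.72 (SE 0.13, limma adjusted p = 0.00278). Rpl7l1, a homologue of Rpl7, was the one that did not pass, with -0.08 (SE 0.083, limma adjusted p = 0.524). Of 12 ribosomal protein pseudogene rows, 10 were higher and 0 lower, beside the same 14.2% of all genes, with a median of 0.87. They were led by Rpl13-ps6 with 0.91 (SE 0.16, limma adjusted p = 0.00256), and their sum was 611.1 to 896.3 TPM in KO microglia and 353.6 to 498.5 TPM in control microglia. Reads of a parent gene can be assigned to such copies, and how reads with several matches were counted is not given in the sources used here.

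A list of elongation factors, other TOP mRNAs and termination factors showed a smaller difference. It does not hold TOP mRNAs alone. Of 12 tested, 6 were higher in KO microglia and 1 lower, where 14.2% of all genes were called in each direction, with a median of 0.40. Tpt1, a classical TOP mRNA, had 0.91 (SE 0.17, limma adjusted p = 0.00281), Eef1a1, which delivers aminoacyl-tRNA to the ribosome, 0.54 (SE 0.10, limma adjusted p = 0.00338), and Eef1g, part of its exchange factor, 0.52 (SE 0.10, limma adjusted p = 0.00343). Gspt1, which acts in translation termination, was lower by -0.90 (SE 0.25, limma adjusted p = 0.0222). Of 33 initiation factors 10 were higher and 2 lower, the second count below that background, with a median of 0.04: Eif4b, a cofactor of the mRNA helicase, had 0.67 (SE 0.12, limma adjusted p = 0.00199), Eif3f 1.50 (SE 0.26, limma adjusted p = 0.00214) and Eif4g2 -0.61 (SE 0.15, limma adjusted p = 0.0113).

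Lists of genes that build, regulate or survey ribosomes had a smaller share called higher than the 14.2% over all genes. For genes called lower, also 14.2% over all genes, the ribosome biogenesis list was above that share. The mTORC1 and quality control lists were below it. Of 42 ribosome biogenesis genes 3 were higher in KO microglia and 8 lower, with a median of -0.12. Polr1a, the largest subunit of the RNA polymerase that makes ribosomal RNA, had 5.35 ± 0.44 TPM in KO microglia and 11.0 ± 1.93 TPM in control microglia (SD, n = 4 each), a log2 difference of -0.91 (SE 0.16, limma adjusted p = 0.00224), and Sbds and Heatr1 were also lower, by -0.44 and -0.79. Nmd3, the export adaptor of the large subunit, was higher by 0.70 (SE 0.091, limma adjusted p = 0.000349), with Nop10 and Npm1 at 0.76 and 0.47. Of 21 genes of mTORC1 and of the control of TOP mRNAs 2 were higher and 2 lower, with a median of -0.04. Deptor, an mTOR inhibitor, had 1.09 (SE 0.27, limma adjusted p = 0.0140) and Eif4ebp1, a repressor of cap-dependent translation, 0.63 (SE 0.14, limma adjusted p = 0.00773). Rps6ka1, a ribosomal S6 kinase, had -1.16 (SE 0.10, limma adjusted p = 2.43e-05) and Rptor, the scaffold of mTORC1, -1.13 (SE 0.18, limma adjusted p = 0.00137).

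Mitochondrial ribosomal proteins, which serve the separate ribosome of mitochondria, had 8 of 77 higher in KO microglia and 5 lower, both below the 14.2% over all genes, with a median of 0.01, among them Mrpl28 at 1.10 and Mrpl43 at -0.60. Of 15 ribosome quality control and stress genes 1 was higher, Eif2ak2, and 1 lower, Usp10, with a median of -0.06. In astrocytes 0 genes of these lists passed between genotypes. Between control microglia and control astrocytes the mitochondrial ribosomal proteins had 2 of 77 members higher and 40 lower, with a median of -0.39, and 8 of 12 pseudogene rows were higher and 0 lower, beside 26.2% of all genes called higher, 39.5% called lower and a median of -0.19.

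**Figure D5:**
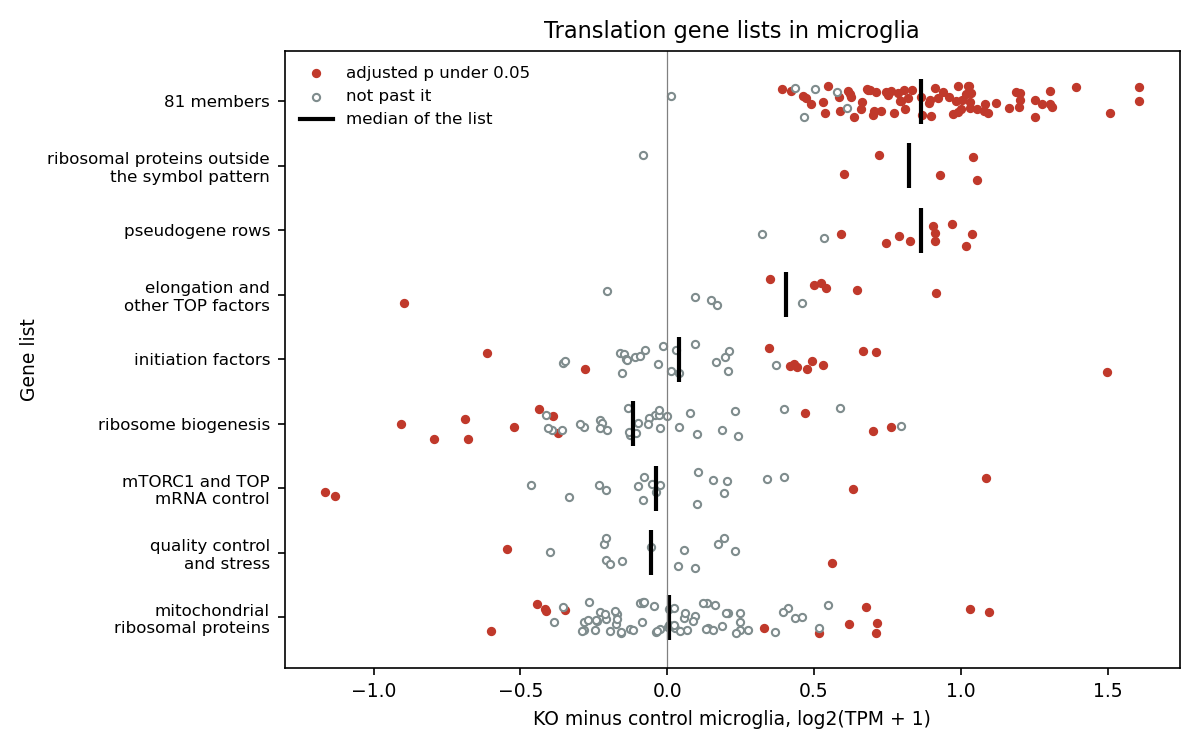
KO minus control microglia difference in log2(TPM + 1) for the members and for 8 other translation-related gene lists; each point is a gene, filled where limma's adjusted p is under 0.05, and the black bar is the list's median. The members, ribosomal proteins outside the symbol pattern and pseudogene rows have medians of 0.82 to 0.87. The list labelled elongation and other TOP factors, which also holds termination factors, has 0.40, and the remaining lists lie between -0.12 and 0.04.

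Among members with a promoter entry, the median KO difference in microglia was 1.06 for the 14 with a C and pyrimidine run exactly at the start and 0.81 for the others. It was 0.94 for the 25 with CCGGAAG and 0.77 for those without. These are descriptions of annotated sequences, with no test, and members of both kinds were higher in KO microglia.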

How the data were processed

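RNA of 17 sorted microglia and astrocyte libraries was analysed; 1 of 18 in the labels was left out. Per the labels, reads were paired, of 61 bp. The authors deposited TPM values rounded to 1 decimal, which turns anything under 0.05 into 0; the files keep no depth, and no counting interval is given. The build mm10, featureCounts 1.6.2, STAR 2.6.1e, cutadapt 1.9.1 and Trim Galore 0.4.2 are named in the submitters' processing notes; annotation, strand and multi-mapping settings are not given in the sources used here. Samples were grouped by labelled genotype and cell type, and replicates are separate animals.

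Each fit took the genes that reached 1 TPM in 4 or more of its libraries, on log2(TPM + 1), and used limma 3.58.1 (R 4.3.3), variance trend, two-sided, Benjamini-Hochberg over all genes tested, threshold 0.05. Fold changes are on that scale, which understates changes of low genes. The pipeline was tested on simulated data. Gene positions are from RefSeq (GRCm38.p6), which held all 81 members. Tables and figures used matplotlib 3.10.9, numpy 2.4.6 and pandas 2.3.3 under Python 3.11.15.

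Members and lists were chosen with earlier results of these data known. Always named were Rps18, Rpl7, the stalk proteins, Rpsa and paralog pairs, then up to 6 rises and 6 falls per comparison, the 5 highest and 3 lowest members, and up to 3 genes per direction in other lists. Of the lists, Utp4, Eif3j, Map3k20, Znf598 and Gcn1 were not listed under those symbols. Values of a few single genes are not reported here; they stay in the counts and medians. Microglia and astrocytes of 1 number are the same animal per the titles, and their deviations from group means correlated at 0.0895 to 0.219 in controls and 0.0178 to 0.132 in KO animals over all genes tested. With the animal as a block, 61 members were called between control cell types, 79 between KO cell types and 55 in the interaction. Shares of all genes called with that block are not given here.

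Alternatives were other pseudocounts, filters and scalings, no variance trend, the replicate block, 1 fit over all groups, each kind of control alone, length correction, and leaving out each library.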

Additional observations from a re-analysis of the deposited data

Results flagged for a closer look

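In 4 cases 1 library lay far from the others of its group for a named member, by Dixon's test at the 95% level; 142 such tests were made, and chance flags about 1 in 20. KO microglia 4 had 259.5 TPM of Rpsa, KO astrocytes 1 had 170.7 TPM of Rps4x, KO astrocytes 2 had 5.5 TPM of Rpl22, and control astrocytes 2 had 52.0 TPM of Rpsa.

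For the following members the KO difference was larger in microglia than in astrocytes by limma's interaction contrast. On the log2 scale the contrast was 1.70 for Rps28, 1.58 for Rps29, 1.50 for Rpl38, 1.42 for Rpl39, 1.36 for Rpl37a and 1.34 for Rpl36. It was 1.24 for Rpl36a, 1.23 for Rpl32, 1.21 for Rps27, 1.21 for Rps19, 1.15 for Rplp2, 1.12 for Rps14, 1.10 for Rps18 and 1.07 for Rplp1. It was 0.99 for Rpsa, 0.95 for Rpl35, 0.86 for Rpl22, 0.78 for Rpl13, 0.72 for Rpl10, 0.72 for Rps24, 0.61 for Rpl3, 0.55 for Rps4x and 0.52 for Rpl7. With control animals 1 and 2 alone, Rps28 was the one of these that passed.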

How the results depend on the processing

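In microglia the members called higher in KO animals numbered 29 of 81 with the replicate number as a block, against 75 as reported. With control animals 1 and 2 alone they numbered 48, where 14.0% of all genes tested were called higher. For the block and the fits that left out 1 library, shares over all genes are not given here. Those counts therefore do not tell a change in the members from a change in all calls. Leaving out 1 library at a time gave 59 to 79 calls, with 59 members called each time. The interaction count of 48 ranged from 27 to 64 when 1 library was left out, with 34 without KO astrocytes 2 and 64 without KO astrocytes 1, and was 2 with control animals 1 and 2 alone, which leaves fewer samples. The astrocyte count was 0 under every alternative run, the count between control cell types was 49 to 66 with 1 library left out, and that between KO cell types 78 to 79. Without the 5 most abundant members the summed share was 4.20% in KO microglia and 1.31% in control astrocytes. Removing mitochondrial genes by an mt- prefix gave no value, since no symbol has it. Removing the 13 genes by their own symbols, a choice made after the data were seen, gave 5.55% and 1.70% in these groups. The shares of control microglia after these removals are not given here, so the genotype difference in microglia cannot be read from them. KO and control animals of 1 number are different mice, and their deviations correlated at 0.0026 to 0.0232 in microglia and -0.0918 to 0.185 in astrocytes, so the block pairs numbers only.

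Some single genes turned sign between settings. Rps4l in microglia was -0.22 with the replicate block, -0.047 with control animals 1 and 2 alone and -0.11 to 0.10 with 1 library left out. Its interaction lay between -0.41 and 0.086 with 1 library left out, and that of Rpl36al was -0.017 with control animals 1 and 2. Between control cell types, leaving out 1 library gave -0.12 to 0.17 for Rps27l and -0.024 to 0.13 for Rpl22. The cause was not tested. The deposited values keep no depth, so precision rests on 4 or 5 animals a group.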
